A study of Saccharomyces cerevisiae with 8 samples.

Results

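YET1, YET2 and YET3 are the 3 genes of Saccharomyces cerevisiae that encode proteins related to BAP31, a membrane protein of the mammalian endoplasmic reticulum (ER). They were taken by their symbols in the annotation of the array, where each has 1 probe set, out of 5449 S. cerevisiae genes measured. YET1 (YKL065C) was picked because its signal was lower after acid in strain NFRI 3145, so its values in that strain are given as a description and carry no test. YET2 (YMR040W) and YET3 (YDL072C) came in as its relatives, whatever their values. All 3 passed the filter on low signals, which asked for a signal above the array's background on at least 2 of 8 arrays and was passed by 3879 genes.

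Poly(A) RNA of 2 strains was hybridised to Affymetrix yeast arrays with 1 colour, with 2 arrays in each of 4 groups. The groups are NFRI 3145, labelled tolerant of acetic acid, after 30 min in 0.6% acetic acid (0.6% AcOH) and without acid (0% AcOH), and NBRC 0224, labelled sensitive, under both conditions. All cells were kept at 30 °C, the labels give a time for the acid samples only, and they name no genotype beyond the strain. Nothing says whether the 2 arrays of a group came from separate cultures, so p-values measure the spread between these arrays, which may be technical. With 2 arrays a group, their number limits the precision. An effect of acid cannot be told apart from an effect of time or handling. The share of tested genes above background was 70.4% and 75.6% on the NFRI 3145 acid arrays, 82.6% and 81.9% on those without acid, and 78.7% to 91.3% in NBRC 0224.

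The BAP31-related proteins span the ER membrane several times. In yeast, Yet1 and Yet3 form a complex that has been found with the protein translocation channel. That complex also takes part in freeing inositol synthesis genes such as INO1 from the repressor Opi1, which the ER protein Scs2 anchors. Mammalian BAP31 acts in the sorting and quality control of other membrane proteins. YET2 is the duplicate of YET1 that remained after the whole-genome duplication of yeast, and little is known of its role.

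YET1 encodes the Yet1 subunit of that complex. Its signal was 35.7 and 24.3 intensity units on the 2 NFRI 3145 arrays under 0.6% AcOH, against 1578 and 1839 at 0% AcOH. Both acid arrays lay below their own background of 43.6 and 39.9, and both arrays without acid lay 40.5 and 43.3 times above theirs. In NBRC 0224 the signal was 591 and 356 under 0.6% AcOH, against 969 and 920 at 0% AcOH, and all 4 of these arrays were above background. No group of YET1 overlapped another. In the same directions, 34.5% of tested genes had no overlap in the NFRI 3145 response and 33.8% in the NBRC 0224 response. Between the strains these shares were 43.6% under acid and 38.5% without. By mean signal the order was NFRI 3145 at 0% AcOH (1708 ± 185, SD, n = 2), NBRC 0224 at 0% AcOH (944 ± 34.7), NBRC 0224 under acid (474 ± 166) and NFRI 3145 under acid (30.0 ± 8.07). In these bulk samples fewer cells with the transcript and less of it per cell cannot be told apart.

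**Figure D1:**
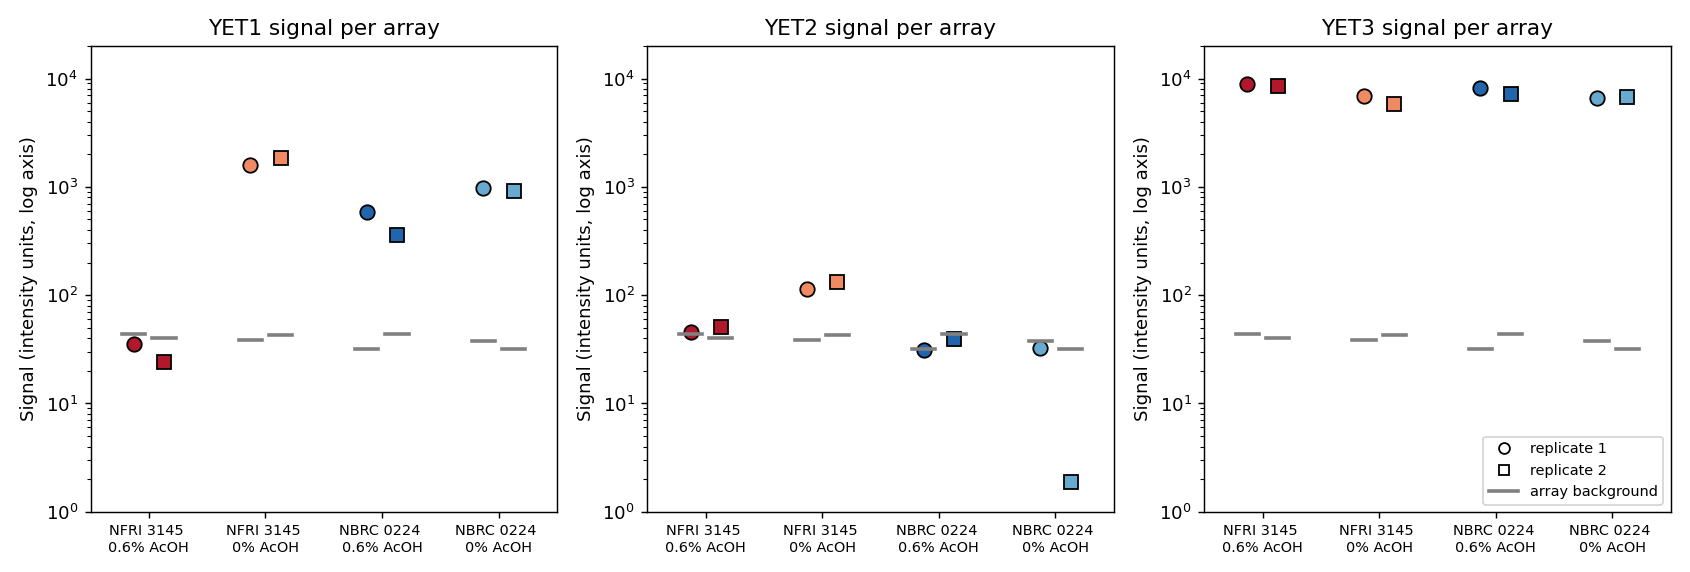
Signal of YET1, YET2 and YET3 on each of the 8 arrays by group, in intensity units on a log axis, with circles for replicate 1, squares for replicate 2 and grey lines for the background of each array. YET1 lies below background on both NFRI 3145 arrays under acid, YET2 on all 4 NBRC 0224 arrays, and YET3 on none.

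In NFRI 3145 the acid signal of YET1 was at least 40.8-fold lower than the signal without acid, with the acid arrays set to their background. The fitted log2 difference of −5.86 rests on readings below background and is no bound, and it was −5.35 with signals raised to background. Of 962 genes with a mean above 1000 at 0% AcOH in NFRI 3145, a cutoff set here, YET1 was the 1 gene that lay below background on both acid arrays. In NBRC 0224 the same count was 0 of 1073 genes. Without the cutoff YET1 was not the largest fall. By fitted difference it ranked 5 from the lowest of 3879 tested genes, and the genes before it had means of 103 to 149 at 0% AcOH in NFRI 3145. The NFRI 3145 acid arrays also had the smallest shares of genes above background of the 4 groups, and the part of this in the values of YET1 and YET2 there was not tested. These values belong to the comparison for which YET1 was picked.

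The response of YET1 in NBRC 0224 did not enter that choice and was tested. Its log2 signal fell under acid by 1.04 ± 0.29 (fitted SE, 2 arrays a group, 95% interval −1.67 to −0.41), with a fold of 0.486 and a limma adjusted p = 0.049. Of the 3 YET genes it was the 1 called at an adjusted p under 0.05 in this response. Of all tested genes 8.40% were called, 3.61% higher and 4.80% lower, and 33.8% had lower signals on both acid arrays than on either array without acid. The call was at the edge of the threshold. It held without NBRC 0224 0.6% AcOH replicate 1 (log2 difference −1.41, adjusted p = 0.0092), while leaving out any of the other 7 arrays gave adjusted p-values of 0.060 to 0.26, with −0.68 without NBRC 0224 0.6% AcOH replicate 2. It also ended under quantile normalization (adjusted p = 0.071), median centring (−0.82, adjusted p = 0.10), no filter on low signals (adjusted p = 0.062) and no variance trend (adjusted p = 0.13).

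Between the strains, YET1 at 0% AcOH had 1578 and 1839 in NFRI 3145 against 969 and 920 in NBRC 0224, a fitted log2 difference of 0.85. Under 0.6% AcOH it had 35.7 and 24.3 in NFRI 3145 against 591 and 356 in NBRC 0224, at least 11.0-fold lower in NFRI 3145, and 43.6% of tested genes had no overlap in that direction. YET1 was thus higher in NFRI 3145 without acid and lower there with acid. The responses differed by −4.31 on the log2 scale with signals raised to background (NFRI 3145 minus NBRC 0224), and the fitted −4.81 is no bound. All of these use the NFRI 3145 arrays that led to the choice of YET1. The probes follow the reference strain and the genomes of these strains were not looked at here, so a difference between strains in transcript level and one in probe match cannot be told apart. The responses within a strain compare the same sequence with itself.

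**Figure D2:**
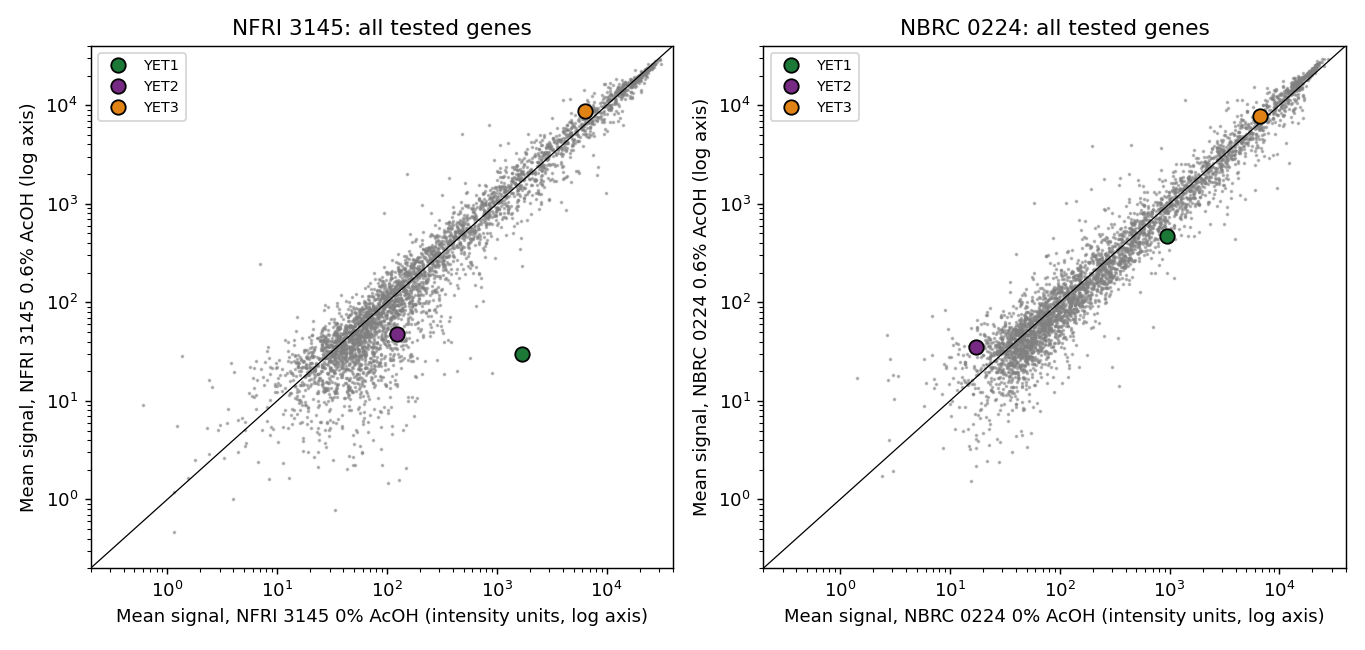
Mean signal under 0.6% AcOH (y axis) against 0% AcOH (x axis) for all 3879 tested genes, in NFRI 3145 on the left and NBRC 0224 on the right, both axes in intensity units on a log scale with the line of equal signal. YET1 lies at 30.0 against 1708 in NFRI 3145 and at 474 against 944 in NBRC 0224, while YET3 lies near the line in both.

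YET2, the duplicate of YET1, was weakly detected, and in 1 strain only by the background used here. Its signal was 45.3 and 50.5 in NFRI 3145 under 0.6% AcOH, against 114 and 133 at 0% AcOH. In NBRC 0224 it was 31.0 and 39.0 under 0.6% AcOH, against 32.7 and 1.90 at 0% AcOH. All 4 NFRI 3145 arrays were above background, at 1.04 and 1.27 times it under acid and 2.94 and 3.13 times without acid. All 4 NBRC 0224 arrays were below it. The order of the means was NFRI 3145 at 0% AcOH, NFRI 3145 under acid, then both NBRC 0224 groups, which overlap and have no order below background.

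At 0% AcOH, YET2 was higher in NFRI 3145 than in NBRC 0224, by at least 3.57-fold with the NBRC 0224 arrays set to their background (group means 124 against 17.3, limma adjusted p = 0.0052). It was the 1 of the 2 tested YET genes called there, where 50.2% of all tested genes were called, 21.1% higher and 29.1% lower, and 38.5% had no overlap in this direction. YET2 passed the filter on low signals only through the NFRI 3145 arrays, the higher group here, so this call is not independent of the filter. With no filter on low signals the limma adjusted p was 0.0099. The fitted log2 difference of 3.97 ± 0.97 is no bound, as it rests on the reading of 1.90. It was 1.91 without NBRC 0224 0% AcOH replicate 2, which gave that reading, and 6.02 without replicate 1 of that group, and the gene stayed called in both. Under 0.6% AcOH the bound on the strain difference was 1.28-fold and the fit did not call it (log2 difference 0.46 ± 0.97, 95% interval −1.67 to 2.59, adjusted p = 0.73).

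The acid response of YET2 in NFRI 3145 was −1.37 ± 0.97 on the log2 scale (SE, n = 2, 95% interval −3.49 to 0.76, limma adjusted p = 0.41). The 2 groups did not overlap, which held in this direction for 34.5% of tested genes, and the fold was 0.388. The SE pools the spread of all 4 groups, and the SD of the log2 signal was 0.11 and 0.16 in NFRI 3145 with and without acid and 0.24 in NBRC 0224 with acid, but 2.91 in NBRC 0224 without it. With every signal raised to its array's background the response kept its size and was called (limma adjusted p = 0.0014). In that setting all 4 NBRC 0224 values are array backgrounds, so this p rests partly on the spread of backgrounds, not of YET2. Without NBRC 0224 0% AcOH replicate 2 the response was again −1.37. The response in NBRC 0224 (fitted at 2.14 ± 0.97, adjusted p = 0.21) compares groups that are both below background, so no fold is given. The fit called it without NBRC 0224 0% AcOH replicate 1 (4.20, adjusted p = 0.0074) and gave 0.09 without replicate 2. The difference of the responses was −3.51 ± 1.37 (adjusted p = 0.23). It was −5.56 without NBRC 0224 0% AcOH replicate 1 and −1.45 without replicate 2. With signals raised to background it was −1.48 (limma adjusted p = 0.030), and the same limit holds for that p.

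YET3 encodes the partner of Yet1. Its signal was 8875 and 8532 in NFRI 3145 under 0.6% AcOH, against 6914 and 5805 at 0% AcOH. In NBRC 0224 it was 8253 and 7256 under 0.6% AcOH, against 6634 and 6728 at 0% AcOH. In both strains the acid arrays lay above both arrays without acid. Groups that do not overlap in this direction held for 24.7% of tested genes in NFRI 3145 and 21.8% in NBRC 0224. The order of the means was NFRI 3145 under acid, NBRC 0224 under acid, NBRC 0224 at 0% AcOH and NFRI 3145 at 0% AcOH. The last 2 overlap, and for no neighbours in this order did the 95% interval of the difference exclude 0.

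The acid response of YET3 in NFRI 3145 was 0.46 ± 0.14 on the log2 scale (SE, n = 2, limma adjusted p = 0.053), and so just missed the threshold. In linear terms this is 1.37-fold, with a 95% interval of 1.11 to 1.70. In this comparison 13.5% of tested genes were called, 3.82% higher and 9.67% lower. YET3 was called with quantile normalization (0.43, adjusted p = 0.041) and with signals raised to background (adjusted p = 0.049). It was not called with no variance trend (adjusted p = 0.18), no filter on low signals (adjusted p = 0.072) or the replicate block (adjusted p = 0.058). With 1 array left out its response was 0.33 to 0.58. Median centring moved the median response of all tested genes from −0.07 to 0.37. It gave YET3 a response of 0.90 (adjusted p = 0.0052), and YET3 lay 0.53 above the median of all genes in both scalings.

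In NBRC 0224 the response of YET3 was 0.21 ± 0.14 (95% interval −0.10 to 0.52, adjusted p = 0.39). The responses of the strains differed by 0.25 ± 0.20 (95% interval −0.19 to 0.68, adjusted p = 0.54), in a comparison where 0.851% of tested genes were called. YET3 was not called between the strains at 0.6% AcOH (0.17 ± 0.14, 95% interval −0.14 to 0.48, adjusted p = 0.36), but median centring called it (0.56, adjusted p = 0.025). There 46.1% of tested genes were called, 17.4% higher and 28.7% lower, and 26.8% had no overlap in the direction of YET2 and YET3. At 0% AcOH the difference was −0.08 ± 0.14 (95% interval −0.39 to 0.23, adjusted p = 0.68). A p that misses the threshold does not show equal levels, and under the deposited scaling these intervals span folds between the strains of 0.765 to 1.18 without acid and 0.907 to 1.39 with it for YET3.

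**Figure D3:**
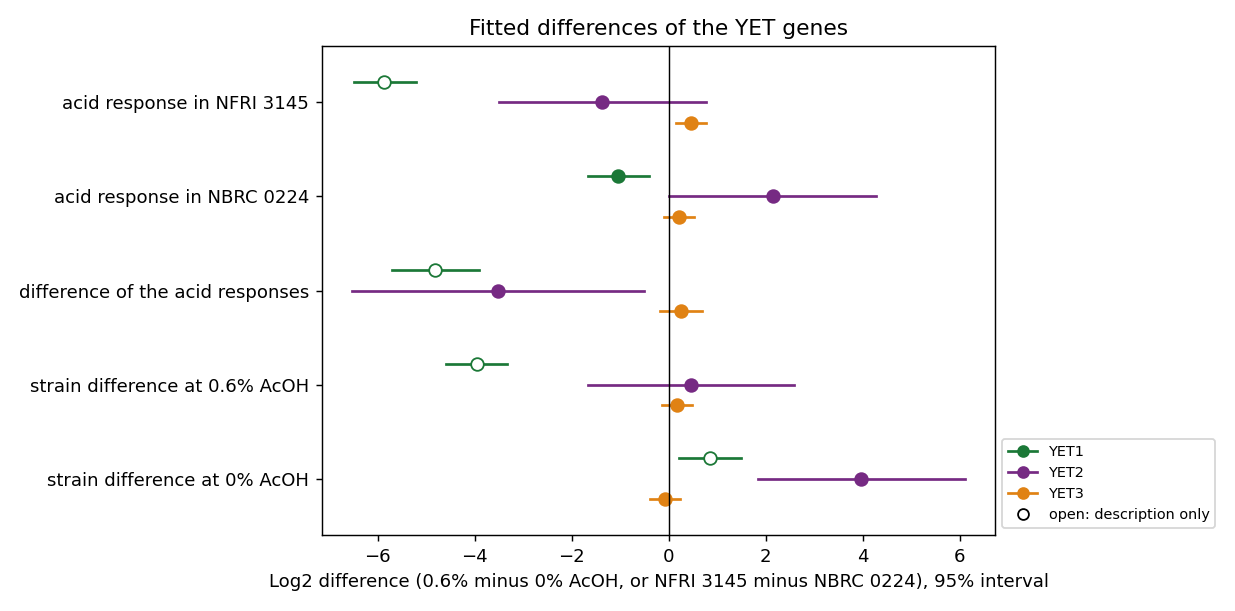
Fitted log2 differences of the 3 genes in 5 comparisons, with 95% intervals from limma (n = 2 arrays per group). Open circles mark the YET1 values given as description only. The estimates of YET1 and YET3 lie on opposite sides of 0 in both acid responses. YET3 was called in neither, and its interval in NBRC 0224 includes 0. The wide intervals of YET2 come with the reading of 1.90 in NBRC 0224 at 0% AcOH.

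Over the 8 arrays the log2 signal of YET1, raised to background where lower, had a Pearson r of 0.343 with YET2 and −0.854 with YET3. Without the 2 NFRI 3145 arrays under acid these were 0.726 and −0.703 over 6 arrays. The arrays share strain and treatment in pairs, so these values describe the profiles and have no test.

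The genes with the profile most like that of YET1 were sought among the 998 other genes that span at least 2 log2 units over the 8 arrays. SWF1, which encodes a palmitoyltransferase of the ER membrane, was closest at r = 0.982. It had 370 and 327 in NFRI 3145 under acid against 1601 and 1677 without acid, and 1090 and 1022 in NBRC 0224 under acid against 1045 and 1459 without. SWF1 thus had its low values in the same group as YET1 but stayed above background there. RUP1, a regulator of the ubiquitin ligase Rsp5, followed at 0.957. It had 33.9 and 17.9 in NFRI 3145 under acid, both below background, against 332 and 244 without acid. HXT4, a glucose transporter gene, was also at 0.957, with 1250 and 1328 in NFRI 3145 under acid against 9089 and 10695 without. Both were lower under acid in NBRC 0224 too. There RUP1 had 113.5 and 127.9 under acid against 254.9 and 323.2 without, and HXT4 had 5393 and 2873 against 11529 and 11605. YDR541C, YGL041C-B and MMS1, a subunit gene of a ubiquitin ligase, stood at 0.954, 0.928 and 0.922.

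The profiles most opposite to YET1 were those of SSA1, a cytosolic Hsp70 chaperone gene (r = −0.915), ENB1, a siderophore transporter gene (−0.879), and GRE3, an aldose reductase gene (−0.847). Without the 2 NFRI 3145 arrays under acid, r was 0.840 for SWF1, 0.780 for RUP1, 0.836 for HXT4, 0.879 for YDR541C, 0.903 for YGL041C-B and 0.699 for MMS1 (n = 6 arrays). It was −0.614 for SSA1, −0.859 for ENB1 and −0.374 for GRE3, and YGL041C-B was then the closest of the 6. For YET3 the closest of 3878 genes was RTP1 at r = 0.987, followed by RFU1 at 0.891 and EMC6, a subunit gene of the ER membrane protein complex, at 0.890, PAU24 at 0.882 and GSC2, a glucan synthase gene, at 0.878. Over the 6 arrays these were 0.992, 0.924, 0.765, 0.831 and 0.705, in the same order. For YET2, MLH3, CSM2, YNL193W, OXR1 and PRM1 stood at 0.989 to 0.993. Each of these 5 is above background on 2 to 5 of 8 arrays, so the likeness rests on few arrays.

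**Figure D4:**
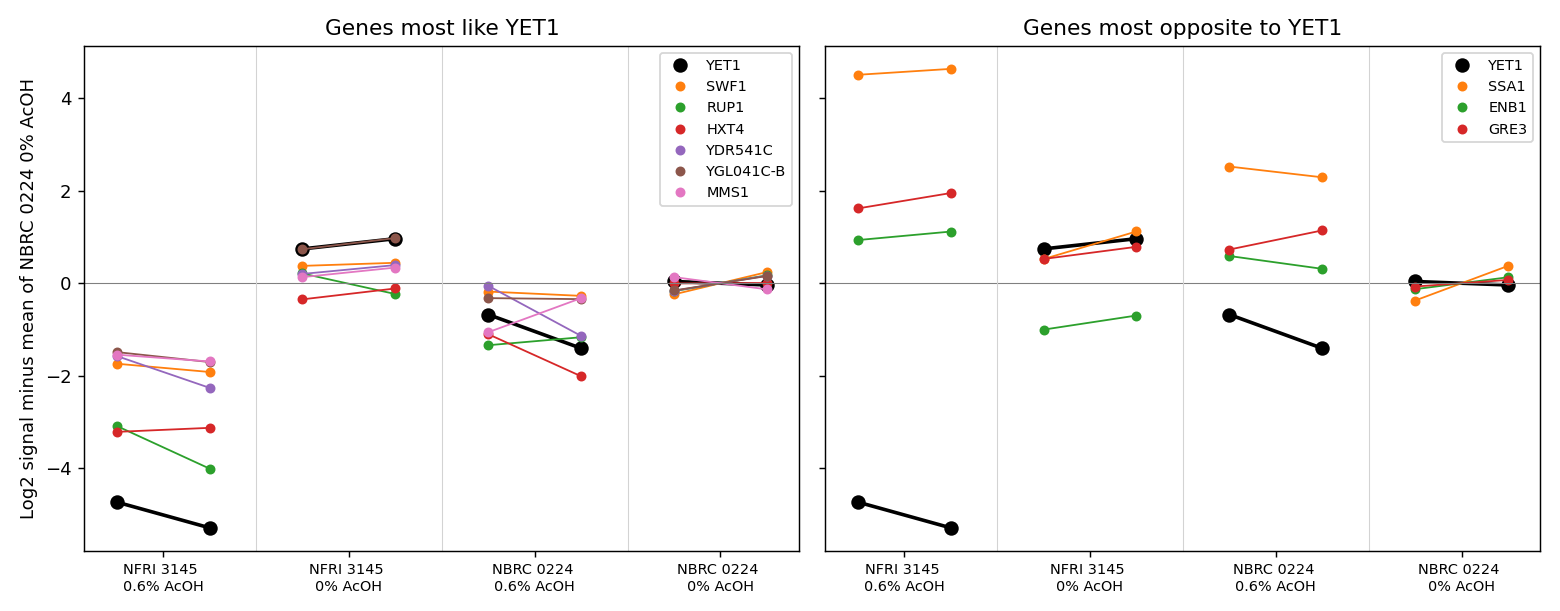
Log2 signal on each array minus the gene's own mean in NBRC 0224 at 0% AcOH, for YET1 (black) with the 6 genes most like it on the left and the 3 most opposite on the right, grouped by strain and acid, the lines joining the 2 replicates of a group. SWF1 (r = 0.982) and HXT4 (r = 0.957) share their lowest values with YET1 in NFRI 3145 under acid, and SSA1 (r = −0.915) has its highest there.

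The 3 genes measured beside YET1 were above background on all 8 arrays. DPC7, the nearest on one side, has no probe set under that name. YNK1, the nucleoside diphosphate kinase gene beyond it, had 251 and 250 in NFRI 3145 under acid against 193 and 157 without acid (log2 difference 0.52 ± 0.22, adjusted p = 0.14). It was lower in NFRI 3145 than in NBRC 0224 in both conditions, by −2.64 ± 0.22 under acid (adjusted p = 3.4e-06) and −3.19 ± 0.22 without (adjusted p = 5.3e-07, limma). MNR2, a vacuolar magnesium transporter gene on the other side, had 147 and 154 in NFRI 3145 under acid against 221 and 165 without acid (−0.34, adjusted p = 0.49), and YKL063C had 88.0 and 107 against 58.7 and 81.8 (0.49, adjusted p = 0.37).

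Beside YET2, SUB1, a transcriptional coactivator gene, fell in NFRI 3145. It had 55.1 and 53.3 under acid against 179 and 228 without acid (−1.90 ± 0.34 on the log2 scale, limma adjusted p = 0.0043), a response that stayed called under each alternative run. ARA2, an arabinose dehydrogenase gene on the other side of YET2, was lower in NFRI 3145 than in NBRC 0224 under acid (−1.16 ± 0.27, adjusted p = 0.0049) and without (−0.76 ± 0.27, adjusted p = 0.037). The call for ARA2 without acid ended under quantile normalization (−0.50, adjusted p = 0.15), median centring (−0.59, adjusted p = 0.099), no filter on low signals (adjusted p = 0.079) and without any 1 of the 4 arrays at 0% AcOH (adjusted p = 0.054 to 0.17). CCS1, the gene of a copper chaperone beyond SUB1, was called in none of the 5 comparisons (limma adjusted p of 0.26 to 0.99, unadjusted p not under 0.05 in any), and the tRNA gene beyond ARA2 has no probe set. Beside YET3, BRE1, the ubiquitin ligase gene for histone H2B, was higher in NFRI 3145 than in NBRC 0224, by 1.17 ± 0.25 under acid (adjusted p = 0.0026) and 1.48 ± 0.25 without (adjusted p = 4.6e-04). AHK1 was above background on 2 of 8 arrays, and BDF2 and CBS1 on none.

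**Figure D5:**
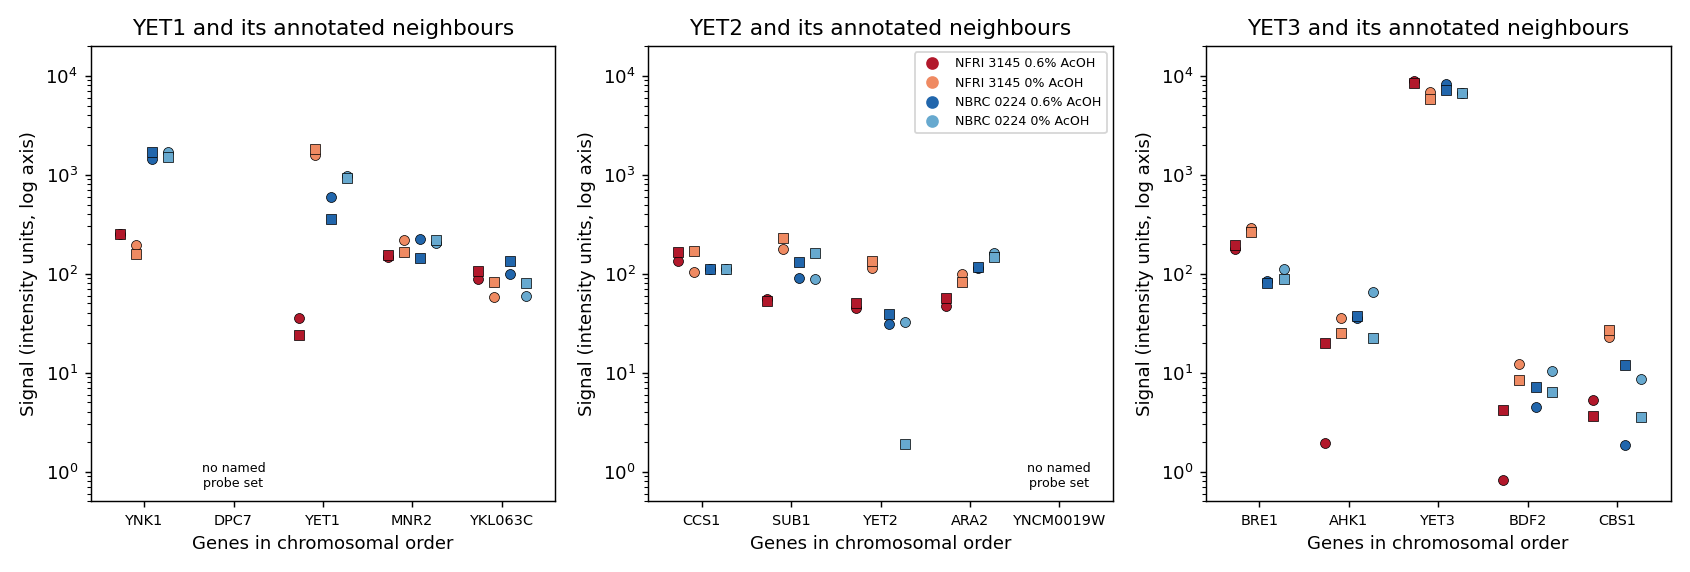
Signals on all 8 arrays (intensity units, log axis; circles replicate 1, squares replicate 2) of each YET gene and the 2 annotated genes on either side in chromosomal order, coloured by group. Among the genes around YET1, YNK1 lies lower in NFRI 3145 than in NBRC 0224 in both conditions, and none goes below background as YET1 does.

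The other genes of this pathway were read from lists of the inositol and phospholipid genes under Opi1 and Scs2, the translocation channel and signal recognition particle, the COPII coat with cargo receptors, the COPI coat with retrieval factors, and the EMC and GET insertion machineries. Of their members, 74 were tested. In NFRI 3145, 3 rose and 3 fell under acid (8.11% called, against 13.5% of all tested genes). In NBRC 0224, 3 fell and none rose (4.05%, against 8.40%). For the difference of the responses limma called 0 of 74, against 0.851% of all tested genes, and 12 had an unadjusted p under 0.05, against 17.3% of all tested genes. Median centring called 22 of the 74 in NFRI 3145, among 1024 of all tested genes, so these counts depend on the scaling.

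In the inositol and phospholipid list, 16 of 24 genes passed the filter. OPI1, which encodes the repressor, was above background on 1 of 8 arrays, and INO2 and INO4, the genes of the activator pair, on none, so they were not tested. SCS2, the anchor of Opi1, had 15036 and 13514 in NFRI 3145 under acid, against 14460 and 14575 without acid (−0.03 ± 0.15, adjusted p = 0.94). SCS2 was higher in NFRI 3145 than in NBRC 0224 at 0% AcOH (0.70 ± 0.15, limma adjusted p = 0.0027). INO1, the inositol synthesis gene at the end of the Opi1 route, had 8.63 and 58.1 in NFRI 3145 under acid, against 57.0 and 76.8 without. In NBRC 0224 INO1 had 144 and 101 under acid, against 89.7 and 90.7 without. Neither response of INO1 was called (adjusted p = 0.16 and 0.75). Under acid INO1 was at least 2.40-fold lower in NFRI 3145 than in NBRC 0224 with the 1 array below background set to it (fitted log2 difference −2.43 ± 0.67, limma adjusted p = 0.012). That call ended without NFRI 3145 0.6% AcOH replicate 1 (−1.06, adjusted p = 0.057), without NBRC 0224 0.6% AcOH replicate 1 (−2.17, adjusted p = 0.074) and with no variance trend (adjusted p = 0.057).

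Of that list PIS1, the phosphatidylinositol synthase gene, fell in both strains, by 0.36 ± 0.11 on the log2 scale in NFRI 3145 (adjusted p = 0.049) and 0.40 ± 0.11 in NBRC 0224 (adjusted p = 0.045). Under median centring the response of PIS1 was 0.08 in NFRI 3145 and −0.18 in NBRC 0224 (adjusted p = 0.73 and 0.52), and neither was called. The replicate block also ended both calls of PIS1 (adjusted p = 0.074 and 0.066). NTE1, a phospholipase gene, fell by 0.53 ± 0.14 in NFRI 3145 (adjusted p = 0.028), but under median centring NTE1 was at −0.09 (adjusted p = 0.73). The list's median response was −0.17 in NFRI 3145 and −0.29 in NBRC 0224, beside −0.07 and −0.11 for all tested genes.

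None of 13 tested genes of the translocation channel and signal recognition particle was called by limma in either acid response, against 13.5% of all tested genes in NFRI 3145 and 8.40% in NBRC 0224. Of the 13, 2 and 3 had an unadjusted p under 0.05 in these strains, against 27.7% and 23.5% of all tested genes. In the COPII list ERV15, a relative of the cargo receptor gene ERV14, fell by 1.12 ± 0.27 in NFRI 3145 (adjusted p = 0.019). SFB3, a COPII coat gene, fell by 1.54 ± 0.22 in NBRC 0224 (adjusted p = 0.0015), and stayed called under each alternative run. In the COPI list RET3, a coat subunit gene, rose by 1.00 ± 0.19 in NFRI 3145 (adjusted p = 0.0070), as did ARF2, a small GTPase gene, by 0.98 ± 0.27 (adjusted p = 0.037), and COP1, the gene of the large coat subunit, fell by 1.02 ± 0.24 in NBRC 0224 (adjusted p = 0.027). EMC6, named above for its likeness to YET3, rose by 0.82 ± 0.22 in NFRI 3145 (adjusted p = 0.028). With 1 array left out, the highest adjusted p was 0.036 for SFB3, but 0.27 and 0.24 for PIS1 in NFRI 3145 and NBRC 0224, 0.17 for NTE1, 0.14 for ERV15, 0.081 for RET3, 0.16 for ARF2, 0.20 for COP1 and 0.22 for EMC6. Under median centring ERV15 was at −0.68 (adjusted p = 0.078) and COP1 at −0.80 (adjusted p = 0.066), no longer called, and EMC6 at 1.27.

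Between the strains 43 of the 74 were called in each condition (58.1%, against 46.1% of all tested genes under acid and 50.2% without). In NFRI 3145, 14 were higher and 29 lower under acid, and 12 higher and 31 lower without. Among all tested genes 17.4% were called higher and 28.7% lower under acid, and 21.1% and 29.1% without. Under acid 1 was higher and 7 lower of 16 tested in the inositol and phospholipid list, 2 and 3 of 13 for the translocation channel, 1 and 10 of 18 for COPII, 4 and 5 of 15 for COPI, and 6 and 4 of 12 for EMC and GET. COP1 had 126 and 165 in NFRI 3145 under acid, against 1389 and 1145 in NBRC 0224 (−3.13 ± 0.24, limma adjusted p = 2.3e-06). GET3, the targeting ATPase gene for tail-anchored proteins, was lower by −3.50 ± 0.32 and GET1, its membrane receptor gene, higher by 2.28 ± 0.28 under acid (adjusted p = 5.9e-06 and 6.2e-05). KAR2, the ER Hsp70 gene, was at −2.25 ± 0.27 and SBH2, a gene of the second translocation channel, at 2.67 ± 0.20 (adjusted p = 5.3e-05 and 2.1e-06).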

How the data were processed

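The deposited table holds linear probe set signals in intensity units, 1 per probe set and array, which the authors made with the Affymetrix software GCOS, per the submitters' processing notes. Its version and settings are not given in the sources used here. The 8 columns share 1 trimmed mean, so the arrays had been scaled, and they were neither logged nor quantile normalized.

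Genes were named through the platform annotation and the R64 gene table. Of 10928 probe sets, 7244 had 1 symbol, 1 several and 3683 none. Of these, 5498 belong to 5449 S. cerevisiae genes. For 47 genes with several, the brightest on average was kept. The other 1746 probe sets with 1 symbol matched no gene of that table. For that reason they were taken as those of Schizosaccharomyces pombe, which the array also holds. Their 95th percentile on an array was its background (31.5 to 43.9). A gene was tested when above it on at least 2 arrays. Log2 signals of all 8 arrays were fitted as 4 group means with limma 3.58.1 in R 4.3.3, using eBayes with a trend (4 residual degrees of freedom, 11.3 after moderation), and p-values were adjusted by Benjamini-Hochberg over 3879 genes. Where a group lay below background, folds are bounds against it. Scripts were tested on simulated data, and plots drawn with matplotlib 3.10.9.

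The rule named the YET genes, 2 annotated genes on each side, the 6 most like and 3 most opposite genes to YET1 and the 5 most like YET2 and YET3, OPI1, SCS2, INO1, INO2 and INO4, and up to 3 called members of each list with the smallest p. Members, lists and rule were chosen with earlier results of these data known. Protein and promoter sequences were not used here. Alternatives were other scalings, filters, backgrounds and variance models, a replicate block, and leaving out each array.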

Additional observations from a re-analysis of the deposited data

How the results depend on the processing

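The 15 or 16 alternatives gave each YET gene its direction again, except the strain difference of YET3 at 0% AcOH, which turned from −0.08 to 0.09 under median centring and 0.05 without NFRI 3145 0% AcOH replicate 2. YET1 and YET2 gave no value among genes above background on all 8 arrays. The cause of the changes below was not tested.

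For YET1 in NBRC 0224 the log2 difference was −0.98 under quantile normalization, −0.82 under median centring and −1.04 with no filter or no variance trend, all no longer called, and −1.41 to −0.68 with 1 array left out. In NFRI 3145 it was −5.41 under median centring and −5.35 with signals raised to background, and −6.13 to −5.58 with 1 array left out. For the difference of the responses it was −4.31 with signals raised to background, and −5.18 to −4.45 with 1 array left out. For the strain difference under acid it was −3.58 and −3.46 under these settings, and −4.33 to −3.60.

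Signals raised to background set all 4 NBRC 0224 values of YET2 to array backgrounds. There YET2 was called in NFRI 3145 (−1.37) and in the difference of the responses (−1.48). With 1 array left out these were −1.48 to −1.26 and −5.56 to −1.45, and its response in NBRC 0224 was 0.09 to 4.20. YET3 in NFRI 3145 was called under quantile normalization (0.43), median centring (0.90), the 99th percentile background and signals raised to background (0.46 each). It was 0.33 to 0.58 with 1 array left out. Under median centring its strain difference under acid was called (0.56). With 1 array left out, its strain difference at 0% AcOH was −0.20 to 0.05. Replicate numbers are shared between groups, and the labels do not say whether they pair the arrays. The difference between replicates 1 and 2 correlated between groups at −0.05 to 0.05 across genes, so no pairing common to the genes was seen. With the replicate block YET1 in NBRC 0224 stayed called (adjusted p = 0.034), YET2 at 0% AcOH between strains too (adjusted p = 0.0030), and no other call of a YET gene changed. The block moved the genes called for the difference of the responses from 33 to 50.

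Members of the 5 lists called in NFRI 3145 numbered 6, but 22 under median centring, 1 with no variance trend and 0 (without NFRI 3145 0% AcOH replicate 2) to 12 (without NBRC 0224 0.6% AcOH replicate 2) with 1 array left out. In NBRC 0224 they numbered 3, but 1 under each of those settings and 1 (without either NBRC 0224 0% AcOH array) to 17 (without NBRC 0224 0.6% AcOH replicate 1). For the difference of the responses they numbered 0, but 2 under median centring, among genes above background on all 8 arrays and with signals raised to background, 1 with the 99th percentile background, and 0 to 11, the highest also without NBRC 0224 0.6% AcOH replicate 1. For the strain difference under acid they numbered 43, and 27 to 43 with 1 array left out. Of the 6 genes most like YET1, 1 was among the top 6 with signals not raised to background, 2 by Spearman rho, and 3 under median centring and the 99th percentile background, and 4 to 6 with 1 array left out.

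Genes called in NFRI 3145 ran from 183 to 767 with 1 array left out and 334 to 1024 otherwise, against 523, in NBRC 0224 from 75 to 747 and 104 to 483, against 326, and for the difference of the responses from 4 to 336 and 5 to 148, against 33. In NFRI 3145 28.3% of calls were higher, but 76.2% under median centring, and in NBRC 0224 42.9%, but 69.9%. For the difference of the responses 24.2% of calls were higher, but 52.5% under median centring, and for the strain difference under acid 37.8%, but 57.1% and, under quantile normalization, 47.8%. The called results of the neighbours and of the list members named by the rule were counted separately under each alternative. Of these pairs of result and alternative, 707 kept direction and call, 73 lost the call and 1 reversed, PIS1 in NFRI 3145 under median centring (0.08). Among the acid responses counted, only those of SUB1 in NFRI 3145 and SFB3 in NBRC 0224 kept the call under every alternative. Genes named only for their profile, such as SWF1, HXT4 and SSA1, were not part of this count.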
